A study of Carassius auratus with 6 samples.

Results

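The genes described here encode the secreted and membrane-bound metalloproteinases of the extracellular matrix (mmp, the matrix metalloproteinases, and adamts, the proteases with thrombospondin motifs), the related adamtsl proteins that lack a protease domain, and the timp genes, whose products are tissue inhibitors of metalloproteinases. Members were all gene models of the goldfish expression table whose best Swiss-Prot match carries a gene name beginning with mmp, adamts, adamtsl or timp followed by a digit. The rule found 129 of 56251 gene models, of which 47 were mmp, 58 adamts, 8 adamtsl and 16 timp models, under 38 gene names. Of these, 72 reached 1 FPKM (reads per kilobase of gene, scaled to library size) in at least 3 of the 6 libraries and were tested, among 33907 tested models of the whole table. The tested members were 30 mmp, 31 adamts, 2 adamtsl and 9 timp models. The rule left out 5 models whose descriptions name these families, 4 of which reached the same FPKM level. Among these are Cau.16G0000580 and Cau.16G0000590, both described as goldfish ADAMTS-like protein 4.

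RNA was sequenced from eyeballs of goldfish (Carassius auratus) that were 1 winter year old, in 3 libraries titled C and 3 titled R. The study compared normal eyes with celestial eyes, a trait of a fancy breed whose eyes point upward. The sample labels give C as normal and R as celestial-eyed, whereas the design text of the series gives C as celestial-eyed fish of a Beijing farm and R as normal-eyed fish of a Jiangsu farm. The groups are therefore called by their letters, and every difference is C minus R. By the design text each group came from its own farm, so farm and eye phenotype cannot be told apart, and no strain, sex or treatment is given for either group. No label ties a library to an individual fish, and the p-values below therefore reflect only how much these libraries vary, which may be partly technical.

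Matrix metalloproteinases are zinc proteases that are made as inactive proenzymes. MMP14, anchored in the membrane, binds TIMP2, and this complex captures and activates the gelatinase MMP2, so TIMP2 takes part in both the inhibition and the activation of MMP2. ADAMTS proteases cut proteoglycans such as versican and aggrecan or trim procollagens, and TIMP3 is the inhibitor that acts most broadly on them. In chick and mammals MMP2 and TIMP2 have been studied in the remodelling of the sclera during eye growth, and in humans mutations of TIMP3, ADAMTS10, ADAMTS17, ADAMTS18 and ADAMTSL4 cause eye disease.

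Libraries held 9444623 to 11317200 reads in genes, so a 1 kb gene with 3 reads has 0.265 to 0.318 FPKM (a limit that covers counting error only). A model counted as called at a limma p under 0.05 after Benjamini-Hochberg adjustment over all 33907 tested models, on log2(FPKM + 1), a scale that understates the change of low genes. On this rule 6864 models (20.2%) were called, 8.67% higher and 11.6% lower in C, and the median difference over all tested models was -0.09. Without C1, R1, R2 or R3 the count of called models was 4145, 3992, 3557 and 4520. C2 stood apart for a small set of models, since 60 tested models lay there at least 1 log2 unit above every other library, against 18 to 34 in each of the other libraries. The tested adamts3 models are in that set, and their values and those of mmp9 and mmp13 are given with and without C2.

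Of the 72 tested members, 10 were higher and 4 lower in C (19.4% against 20.2% of all tested models), so their share of calls was near that of the table. The higher members were 3 models each of adamts1 and timp2 and 1 model each of adamts8, adamtsl5, mmp2 and mmp25. The lower members were 1 model each of adamts2, adamts18, mmp11 and mmp13. By class, 2 mmp models were higher and 2 lower, 4 adamts models higher and 2 lower, 1 adamtsl model higher, and 3 timp models higher and none lower. The median difference of the tested members was 0.16 for all, -0.06 for mmp, 0.17 for adamts, 0.37 for adamtsl and 0.29 for timp. The C and R libraries did not overlap for 26 of the 72 members, 20 higher and 6 lower in C, where the table had 41.4% without overlap, 16.3% higher and 25.1% lower. The count of 14 called members became 8 without C1, 8 without R1 and 8 without R2, and was 12 or 13 without C2, C3 or R3. In whole eyeballs, fewer cells of a type and less RNA per cell cannot be told apart.

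**Figure D1:**
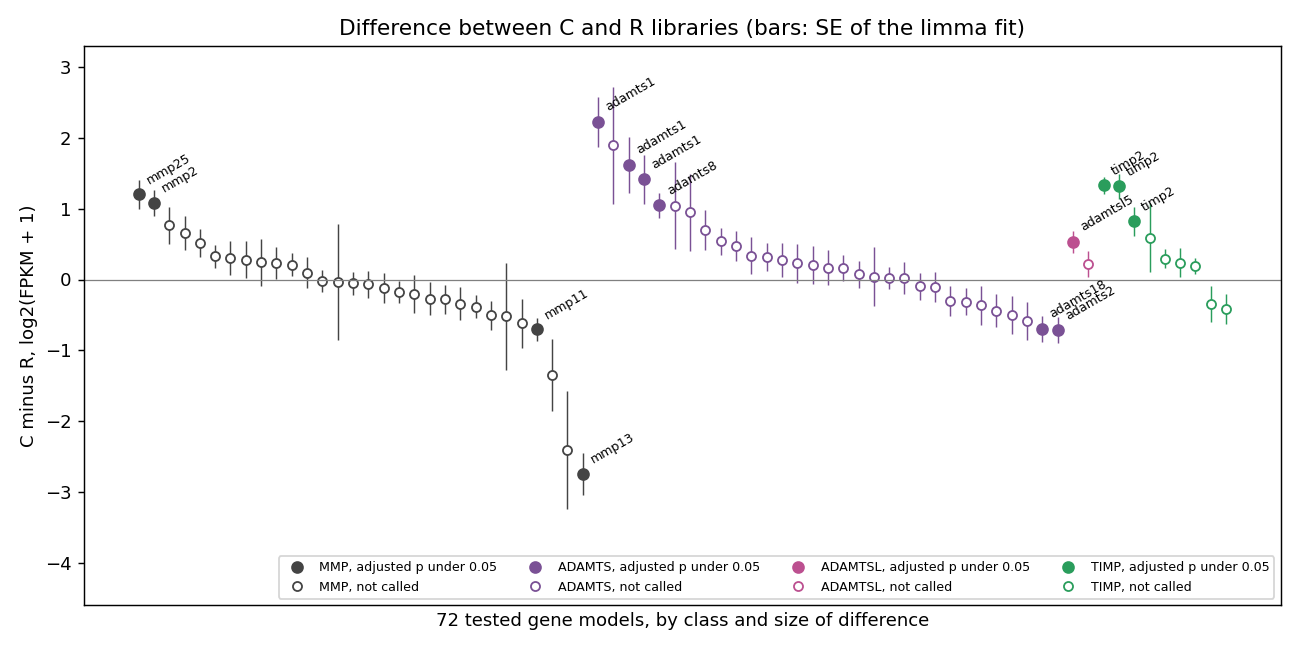
Difference between C and R on the log2(FPKM + 1) scale (y axis) for the 72 tested members, ordered within mmp, adamts, adamtsl and timp by its size (x axis); filled points passed the adjusted p threshold of 0.05 and bars are SE. The 14 filled points lie between -2.75 (mmp13) and 2.23 (adamts1), and no timp model is filled below 0.

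Among the inhibitors, 3 of the 7 tested models of timp2 were called higher in C, as were 8.67% of all tested models. The model Cau.28G0017000 (chromosome 28, 35661143 to 35668630, plus strand; the assembly is not named in the files) had 30.5, 29.7 and 31.2 FPKM in C1, C2 and C3 and 12.6, 11.9 and 10.2 in R1, R2 and R3. The libraries of each letter lay close together and the groups did not overlap. Its means were 30.5 ± 0.719 and 11.6 ± 1.23 FPKM (SD, n = 3 each), a difference of 1.33 (SE 0.12, limma adjusted p = 0.000449). This was the smallest adjusted p of any member, and the call was kept under all 13 alternatives tried.

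Both tested models on chromosome 3, each matched to the goldfish symbol timp2b, lay in the same direction. Cau.03G0018320 (36335246 to 36343302, plus strand) had 6.37, 6.47 and 5.36 FPKM in C and 1.78, 1.47 and 2.32 in R, a difference of 1.315 (SE 0.17, limma adjusted p = 0.00228). Cau.03G0018300 (36284951 to 36292626, plus strand) had 2.57, 2.31 and 2.61 FPKM in C and 1.42, 1.06 and 0.545 in R, a difference of 0.82 (SE 0.21, limma adjusted p = 0.0301). Neither model's groups overlapped. The call of Cau.03G0018300 was lost without C1, C2, C3, R2 or R3, with limma adjusted p-values of 0.0873, 0.0508, 0.0624, 0.0834 and 0.0814. Both models carry 1 RefSeq symbol, so they may be parts of the same gene. If they are copies, reads of near-identical stretches may have been split between them.

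The most abundant inhibitor models were not called. Cau.37G0008870 of timp2 had 102, 87.5 and 89.6 FPKM in C and 84.5, 81.5 and 77.8 in R, a difference of 0.19 (SE 0.12, limma adjusted p = 0.281) that became -0.0035 after quantile normalisation. Cau.12G0009510 of timp2 had 70.8, 57.8 and 60.2 FPKM in C and 53.7, 54.9 and 45.3 in R, a difference of 0.29 (SE 0.13, limma adjusted p = 0.166). In each of these abundant copies the C libraries lay above all R libraries, by less than the test could separate from their spread. The other tested timp2 models, Cau.12G0009520 and Cau.11G0001310, differed by 0.24 and -0.35 and were not called. Cau.12G0009520 carries the same RefSeq symbol as Cau.12G0009510, so they may be parts of the same gene. Cau.11G0001310 matches TIMP2 in Swiss-Prot but is described as goldfish metalloproteinase inhibitor 4-like, so which timp gene it is remains uncertain.

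The gene timp3 encodes the inhibitor that stays bound to the matrix. Its only tested model, Cau.04G0000370, had 17.1, 57.4 and 74.6 FPKM in C and 30.3, 20.4 and 34.0 in R. C2 and C3 were above all R libraries and C1 below them, so that the difference of 0.59 had an SE of 0.49 (limma adjusted p = 0.424). It was 1.22 without C1 (limma adjusted p = 0.0243), but 0.37 without C2 and 0.19 without C3 (limma adjusted p = 0.66 and 0.817). Without R1, R2 or R3 it was 0.66, 0.38 and 0.74, and the model was not called. The only model that Swiss-Prot names timp4 had 0.933, 1.66 and 1.05 FPKM in C and 1.59, 2.60 and 1.68 in R (limma adjusted p = 0.211). Summed over the 9 tested models, timp FPKM was 242, 253 and 272 in C and 193, 185 and 180 in R, with no overlap (255.7 ± 15.1 and 186 ± 6.77, SD, n = 3 each). Over all timp models, tested or not, timp2 gave 72.02% to 92.4% of timp FPKM in each library.

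**Figure D2:**
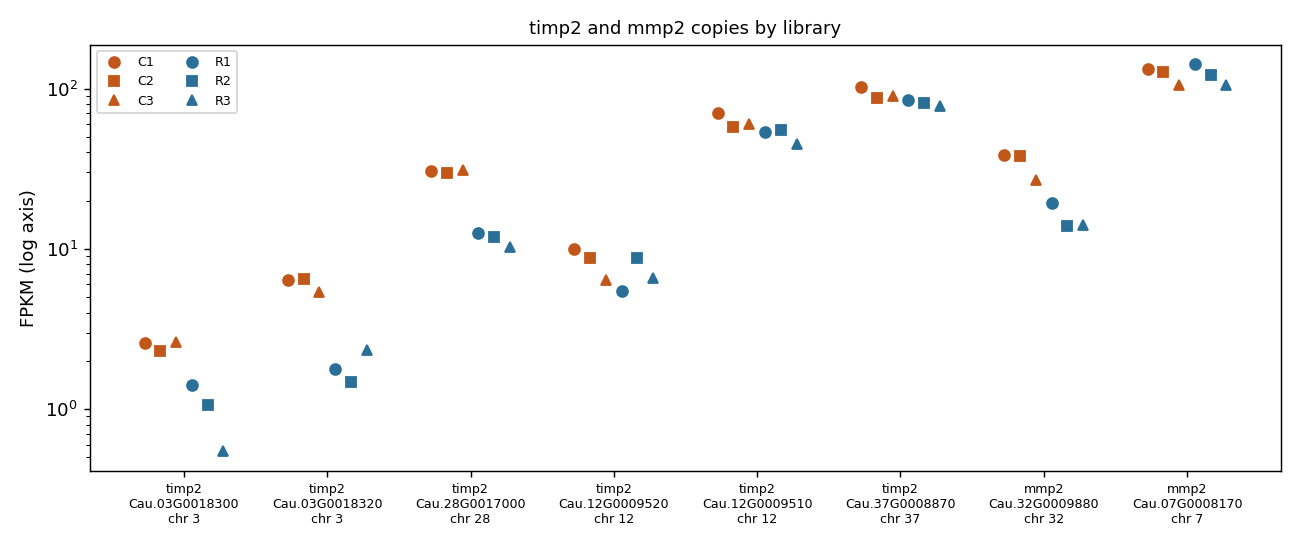
FPKM on a log axis of 6 of the 7 tested timp2 models and both mmp2 models in each library (points, with C in orange and R in blue). The timp2 model not drawn, Cau.11G0001310, is the only tested one with a negative difference (-0.35). The timp2 model on chromosome 28 and the mmp2 model on chromosome 32 have all C libraries above all R libraries (30.5 against 11.6 and 34.6 against 15.8 FPKM on average), while the abundant mmp2 model on chromosome 7 has overlapping groups.

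The gene mmp2 encodes gelatinase A, and its copies on chromosomes 7 and 32 differed in how they compared between the letters. The copy Cau.32G0009880 (chromosome 32, 19756226 to 19770453, minus strand) had 38.5, 38.1 and 27.0 FPKM in C and 19.3, 13.9 and 14.1 in R. Its groups did not overlap, and it was 2.19 times as high in C by group means (34.6 ± 6.52 against 15.8 ± 3.05; difference 1.08, SE 0.19, limma adjusted p = 0.00672). The copy Cau.07G0008170, the member of highest mean FPKM, had 132, 128 and 105 FPKM in C and 142, 122 and 106 in R, with fully mingled groups (difference -0.02, SE 0.16, limma adjusted p = 0.94), and the sign of its difference turned to 0.07 with the median log2 ratio set to 0. As a result the summed mmp2 level was 171, 166 and 132 FPKM in C and 162, 136 and 120 in R, which overlapped.

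Goldfish chromosomes in this table come in pairs numbered n and n + 25, and 27 of the 32 member names with more than 1 model have models on such a pair. Whether the balance of copies differed was tested with limma on the log2 ratio of FPKM + 1 between copies for all 3241 gene names with exactly 2 tested models on such a pair, a comparison added after the values had been seen. It called 15.9% of the names. The mmp2 ratio of chromosome 7 over 32 was 1.75, 1.72 and 1.92 (log2) in C and 2.82, 3.05 and 2.82 in R, a difference of -1.10 (SE 0.14, limma adjusted p = 0.00281). For mmp9 the ratio of chromosome 8 over 33 was -1.27, -1.61 and -1.33 (log2) in C and -3.13, -3.78 and -2.98 in R, a difference of 1.89 (SE 0.23, limma adjusted p = 0.00219). Both ratios stayed under the threshold with any 1 library left out, with limma adjusted p-values up to 0.0143 and 0.0102. The third such pair, adamts10, differed by -0.68 (SE 0.19, limma adjusted p = 0.0526).

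The gelatinase B gene mmp9 and the collagenase-3 gene mmp13 varied widely between libraries. The mmp9 copy Cau.33G0006640 had 9.77, 106.3 and 13.7 FPKM in C and 223, 163.5 and 68.4 in R. C1 and C3 lay far below every R library and C2 between R2 and R3, so the difference of -2.41 had an SE of 0.84 (limma adjusted p = 0.0796). Without C2 it was -3.45 (SE 0.46, limma adjusted p = 0.0047), in a comparison that called 18.9% of all tested models. Without C1, C3, R1, R2 or R3 this copy was not called (limma adjusted p = 0.212, 0.189, 0.206, 0.197 and 0.0895). The other mmp9 copy, Cau.08G0007250, had 3.47, 34.2 and 4.82 FPKM in C and 24.6, 11 and 7.78 in R (difference -0.52, limma adjusted p = 0.66; without C2 -1.45, limma adjusted p = 0.0534). C2 was thus high for both copies, while its ratio between them was like that of C1 and C3.

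The mmp13 model Cau.35G0008630 (chromosome 35, 19017657 to 19046527, plus strand) had 4.62, 5.80 and 3.95 FPKM in C and 46.6, 50.4 and 22.5 in R. The groups were far apart, with C2 among the low libraries, and R was 8.315 times as high by group means (4.79 ± 0.938 and 39.8 ± 15.1 FPKM; difference -2.75, SE 0.29, limma adjusted p = 0.00106). The files describe this model as a hypothetical protein, so its name rests on the Swiss-Prot match alone. The copy Cau.40G0008820 had 3.92, 41.5 and 6.12 FPKM in C and 22.4, 11.25 and 4.55 in R, high in C2 as mmp9 was (difference -0.03, SE 0.82, limma adjusted p = 0.982; without C2 -0.98, limma adjusted p = 0.238). The copy Cau.10G0009250 had 1.48, 1.68 and 1.60 FPKM in C and 10.5, 8.51 and 1.61 in R, with R3 at the C level; its difference was -1.35 with all libraries (limma adjusted p = 0.0973) and -2.02 without R3 (limma adjusted p = 0.00195).

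Markers of cell types that make these proteases were read beside them. Of 38 tested neutrophil and macrophage marker models, 2 were higher and 8 lower in C (26.3% called, against 20.2% of all tested models). A model was found for 15 of the 17 marker symbols, none under 1 FPKM throughout. The summed marker level was 3031 to 4140 FPKM in C and 2950 to 3499 in R, which overlapped, and the list's median difference was 0.04, with 21 models above and 17 below 0. Higher in C were marco Cau.34G0002310 and ncf4 Cau.47G0008380 (differences 0.78 and 0.89, limma adjusted p = 0.0241 and 0.047). The models with the smallest p were mpeg1 Cau.08G0008580, listed at 0 in each C library and at 1.98, 3.01 and 2.25 FPKM in R, and ptprc Cau.22G0012380 (difference -1.23). Summed over its models, mpeg1 had 24.15 to 38.0 FPKM in C and 25.6 to 39.8 in R, which overlapped. The ptprc sums of 44.2 to 74.2 in C and 63.7 to 73.6 in R also overlapped. The neutrophil enzyme gene mpo, summed over its models, had 4.15, 5.49 and 1.40 FPKM in C and 18.2, 32.75 and 12.4 in R, and the lysozyme gene lyz had 5.38, 0.893 and 0.318 in C and 16.4, 15.75 and 10.4 in R. The ncf1 sums lay the other way without overlap, at 28.15, 24.75 and 24.7 FPKM in C and 22.8, 22.1 and 15.3 in R. The ncf4 sums of 5.70 to 9.515 in C and 5.07 to 7.15 in R overlapped. Of 51 tested models of corneal and surface epithelium, 5 were higher and 27 lower in C (62.75% called). Their sums were 1709 to 2180 FPKM in C and 2833 to 4167 in R. The keratin models krt18 Cau.23G0003040 and krt17 Cau.45G0007270 had the smallest p (differences -4.22 and -3.39). Summed over its models, krt18 had 557, 547 and 430 FPKM in C and 405, 443 and 370.5 in R, which overlapped. The krt17 sums of 93.1, 94.0 and 225 in C and 677, 537 and 222 in R also overlapped, as did those of krt19 and cdh1. The sums of krt8, epcam, tp63, pax6, evpl, ppl and dsp were lower in C without overlap. Those of krt8 were 539 to 809 FPKM in C and 1349 to 2021 in R. For that list 12 of 16 symbols had a model, and krt13 was under 1 FPKM in all libraries. The part of these cell types in the mmp9 and mmp13 levels was not tested.

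**Figure D3:**
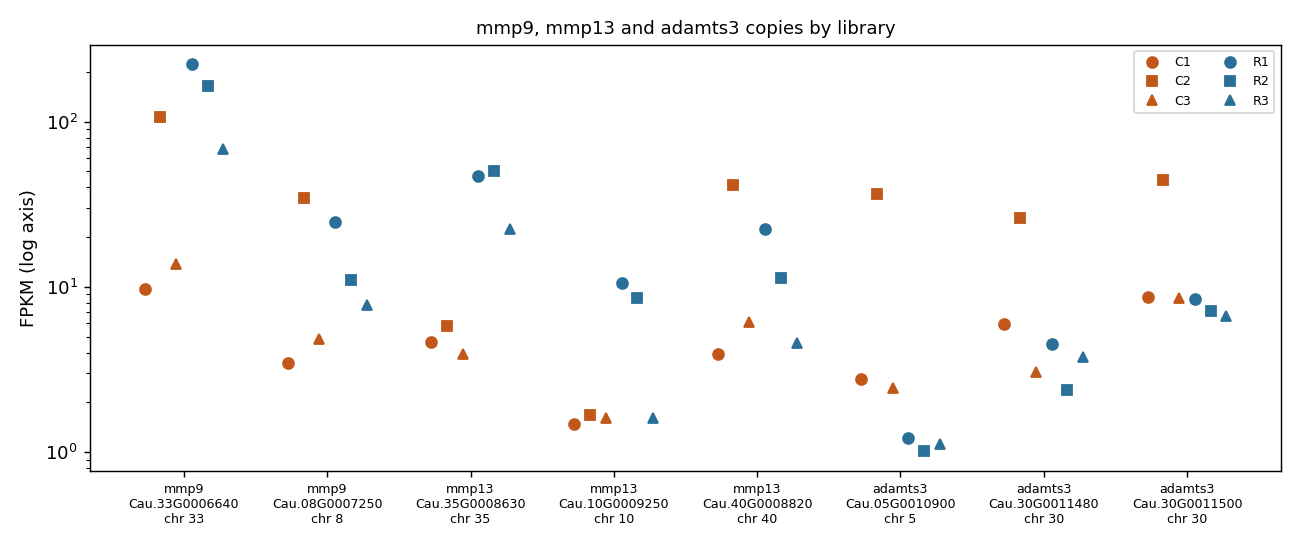
FPKM on a log axis of the tested mmp9, mmp13 and adamts3 models in each library (points; C orange, R blue). The square of C2 stands above C1 and C3 for both mmp9 copies, for the mmp13 copy on chromosome 40 and for all 3 adamts3 models, whereas the mmp13 copy on chromosome 35 has C2 at 5.80 FPKM beside the other C libraries.

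Among the 17 tested models of membrane-type enzymes only mmp25 was called (5.88%, against 20.2% of all tested models). MMP25 is a protease held at the surface by a lipid anchor and known from human leukocytes. Its tested model Cau.12G0001860 (chromosome 12, 4408838 to 4416195, plus strand) had 18.9, 22.2 and 18.0 FPKM in C and 8.21, 10.8 and 5.63 in R. The groups did not overlap, with means of 19.7 ± 2.19 and 8.20 ± 2.56 FPKM and a difference of 1.20 (SE 0.21, limma adjusted p = 0.00726).

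The activator of MMP2, mmp14, had 5 tested models and none was called, against 20.2% of all tested models. The most abundant, Cau.07G0004850 (goldfish symbol mmp14a), had 67.0, 62.6 and 49.8 FPKM in C and 60.4, 47.8 and 46.3 in R, with overlapping groups (difference 0.21, SE 0.16, limma adjusted p = 0.384). Cau.02G0010080 had 18.7, 22.1 and 12.7 FPKM in C and 13.9, 10.6 and 8.16 in R (difference 0.66, SE 0.24, limma adjusted p = 0.0896); without C3 its limma adjusted p was 0.0345, and with the median log2 ratio set to 0 it was 0.0433. Summed mmp14 was 109.7, 120.2 and 81.7 FPKM in C and 106.1, 92.1 and 78.6 in R. The tested mmp14 models Cau.32G0006200 and Cau.32G0006210 carry the same RefSeq symbol and may be parts of the same gene. The other membrane-type names, mmp15, mmp16, mmp17 and mmp24, had differences between -0.39 and 0.33 in their tested models. Of these, mmp15 Cau.32G0016150 reached a limma adjusted p of 0.0389 without C3 (difference 0.65). The mmp24 model Cau.49G0007610 is described as goldfish matrix metalloproteinase-16-like, so which gene it is remains uncertain. The mmp16 models on chromosome 24 lie near each other and may not be separate copies.

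Of the remaining matrix metalloproteinases, mmp11 encodes stromelysin-3, which is activated inside the cell and is known from stromal cells. Its model Cau.08G0008930 (chromosome 8, 17732692 to 17749216, plus strand) had 1.55, 1.97 and 1.76 FPKM in C and 3.90, 3.63 and 3.00 in R, a difference of -0.71 (SE 0.17, limma adjusted p = 0.0235). The groups did not overlap. The call was lost without C1, R1 or R2, with limma adjusted p-values of 0.0767, 0.0852 and 0.087, and after quantile normalisation (limma adjusted p = 0.0579). The other tested copy, Cau.21G0004180, had 1.28, 1.16 and 0.883 FPKM in C and 2.08, 2.54 and 1.45 in R, also without overlap, and was not called (difference -0.51, limma adjusted p = 0.113). None of the 4 tested mmp23 and mmp23b models was called, against 20.2% of all tested models. The furthest apart was Cau.08G0014500 of mmp23b at 0.76 (SE 0.26, limma adjusted p = 0.0758). Its limma adjusted p was 0.0368 after quantile normalisation and 0.0465 with the median log2 ratio set to 0. After quantile normalisation mmp23 Cau.18G0010200 was also called (limma adjusted p = 0.0492).

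The gene adamts1 encodes a secreted protease that cuts versican and aggrecan. All 3 adamts1 models were called higher in C, as were 8.67% of all tested models. Cau.01G0000880 (chromosome 1, 1625497 to 1651508, plus strand) had 31.5, 29.7 and 17.2 FPKM in C and 2.86, 3.93 and 8.32 in R. The groups did not overlap, with means of 26.2 ± 7.78 and 5.04 ± 2.89 FPKM, and the difference of 2.23 (SE 0.35, limma adjusted p = 0.00464) was kept under all 13 alternatives. Cau.26G0006180 (chromosome 26, 20154076 to 20159902, plus strand), the model with the goldfish symbol adamts1, had 19.8, 18.7 and 9.35 FPKM in C and 2.57, 3.44 and 8.20 in R. C3 was nearest to R3, and the difference was 1.62 (SE 0.39, limma adjusted p = 0.0258).

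The third model, Cau.01G0000450 (chromosome 1, 545388 to 566748, minus strand), had 20.4, 19.25 and 15.25 FPKM in C and 3.59, 5.255 and 12.01 in R, again without overlap (difference 1.41, SE 0.35, limma adjusted p = 0.0273). Without C1, C2, R1 or R2 its limma adjusted p was 0.0862, 0.0579, 0.0697 and 0.0954, and that of Cau.26G0006180 was 0.0866, 0.0604, 0.0801 and 0.0917. In every model C3 was the lowest C library and R3 the highest R library. Both chromosome 1 models share a protein match described as herring ADAMTS5 while their Swiss-Prot match is mouse ADAMTS1, so which family gene they are is uncertain and reads may have been split between them. The adamts5 model Cau.26G0006160, which lies beside the adamts1 model on chromosome 26, had 3.12, 4.26 and 2.10 FPKM in C and 2.59, 2.93 and 3.52 in R, a difference of 0.02 (SE 0.22, limma adjusted p = 0.95).

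Summed over the 3 models, adamts1 was 71.7, 67.6 and 41.8 FPKM in C and 9.02, 12.6 and 28.5 in R (60.4 ± 16.2 and 16.7 ± 10.4, SD, n = 3 each), with a difference of 1.99 between the group means of log2 of the sum. The copies did not keep the same balance. Cau.01G0000880 gave 43.95%, 43.9% and 41.2% of adamts1 FPKM in C and 31.7%, 31.1% and 29.2% in R. Cau.01G0000450 gave 28.4%, 28.5% and 36.5% in C and 39.8%, 41.6% and 42.1% in R, so the most abundant copy was Cau.01G0000880 in each C library and Cau.01G0000450 in each R library. Cau.26G0006180 gave 22.4% to 27.6% in C and 27.3% to 28.8% in R. Over all adamts models, tested or not, adamts1 made up 22.2% to 40.8% of adamts FPKM in C and 8.32% to 22.2% in R.

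**Figure D4:**
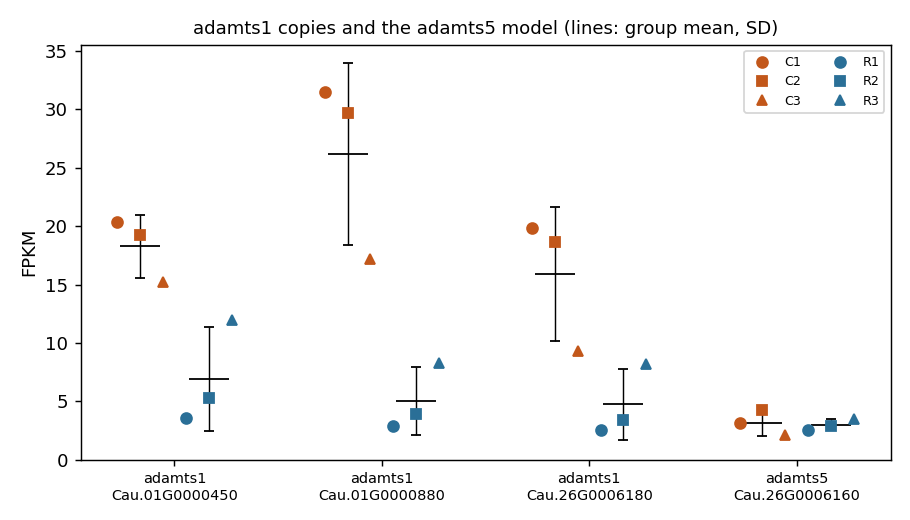
FPKM of the 3 adamts1 models and of the neighbouring adamts5 model in each library (points; C orange, R blue; horizontal lines are group means and bars SD, n = 3). Each adamts1 model has all C libraries above all R libraries, with C3 and R3 nearest to each other, and the adamts5 model has overlapping groups between 2.10 and 4.26 FPKM.

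ADAMTS2, ADAMTS3 and ADAMTS14 remove the amino-terminal propeptide of fibrillar procollagens. In adamts2 all 5 tested models had lower means in C and 1 was called lower, as were 11.6% of all tested models. That model, Cau.14G0006480 (chromosome 14, 15648955 to 15653419, plus strand), a fragment of 546 bases, had 5.24, 6.16 and 3.82 FPKM in C and 9.69, 9.64 and 7.44 in R (difference -0.72, SE 0.19, limma adjusted p = 0.0319). Its groups did not overlap, and its call was lost without C1, C3, R1 or R2 (limma adjusted p = 0.076, 0.0519, 0.104 and 0.113) and with limma-voom on recovered reads (adjusted p = 0.063). The other tested models differed by -0.44 to -0.10. Of these, Cau.14G0006510 (-0.31) carries the same RefSeq symbol as the called model and may be part of the same gene. Cau.21G0008890 and Cau.21G0008900 also share a symbol. Summed over all its models, tested or not, adamts2 was 21.5, 24.2 and 14.6 FPKM in C and 31.1, 29.4 and 25.4 in R. The only adamts14 model had 8.14, 10.6 and 7.14 FPKM in C and 8.67, 8.18 and 8.22 in R, which overlapped (limma adjusted p = 0.923).

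The gene adamts3, whose product also processes the lymphatic growth factor VEGF-C, stood out in a single library. Cau.05G0010900 had 2.78, 36.55 and 2.45 FPKM in C and 1.22, 1.01 and 1.13 in R, Cau.30G0011500 had 8.73, 44.2 and 8.55 in C and 8.39, 7.15 and 6.67 in R, and Cau.30G0011480 had 5.98, 26.3 and 3.04 in C and 4.49, 2.36 and 3.74 in R. C2 was the highest library for each model, at 13.2, 5.06 and 4.39 times the next library. Cau.05G0010900 stood further above its next library in C2 than any other of the 33907 tested models (3.31 log2 units), and the other adamts3 models ranked 8 and 11. Those models, on chromosome 30, carry the same RefSeq symbol and may be parts of the same gene. None was called with all libraries (differences 1.895, 0.95 and 1.045, limma adjusted p = 0.143, 0.256 and 0.267). Without C2 Cau.05G0010900 was higher in C by 0.77 (SE 0.19, limma adjusted p = 0.0344), and the models on chromosome 30 differed by 0.20 and 0.26 (limma adjusted p = 0.371 and 0.578). The untested fragment Cau.05G0010930 had 26.1 FPKM in C2 and at most 1.75 in the other libraries.

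The genes adamts8 and adamts15 lie side by side on chromosomes 5, 15, 30 and 40, and among the tested copies those on chromosome 15 separated by letter. The adamts8 model Cau.15G0004960 (13561183 to 13570312, plus strand) had 6.72, 5.31 and 5.155 FPKM in C and 1.79, 2.21 and 2.77 in R, with no overlap (difference 1.05, SE 0.18, limma adjusted p = 0.00649). This call was kept under all 12 alternatives that tested it. The adjacent adamts15 model Cau.15G0004950 (13546001 to 13557933, minus strand) had 2.17, 2.46 and 1.55 FPKM in C and 0.87, 1.26 and 1.16 in R, also without overlap, and was not called (difference 0.54, SE 0.19, limma adjusted p = 0.0853). It was called after quantile normalisation, with the median log2 ratio set to 0 and with limma-voom (adjusted p = 0.0173, 0.0364 and 0.0467). The other tested adamts8 models differed by -0.50 to 0.17 and the other adamts15 models by 0.23 and 0.34. The adamts8 models on chromosome 40 carry the same RefSeq symbol and may be parts of the same gene.

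Mutations of ADAMTS18 in humans affect the cornea and retina. Its model Cau.32G0011830 (chromosome 32, 24420241 to 24458666, plus strand) had 1.98, 3.09 and 1.84 FPKM in C and 4.50, 4.13 and 4.19 in R, with no overlap (difference -0.69, SE 0.19, limma adjusted p = 0.0355). The call was lost without C1, C3, R1, R2 or R3 (limma adjusted p = 0.106, 0.0685, 0.107, 0.0994 and 0.0904). The other adamts18 models differed by -0.59 to 0.16. The -0.59 belonged to Cau.32G0011820, a neighbour of 519 bases with the same RefSeq symbol, so it may be part of the same gene. The models on chromosome 7 differed by 0.16 and -0.11. The fibrillin-binding proteases adamts10 and adamts17 had 2 and 3 tested models. Their differences were -0.37 and 0.31 for adamts10 and 0.07 to 0.70 for adamts17. None was called, against 20.2% of all tested models. Without C3 adamts10 Cau.33G0005250 had a limma adjusted p of 0.0384 (difference 0.52), and without R2 adamts17 Cau.32G0002490 had 0.0433 (difference 1.00). That adamts17 model, of 237 bases, had only 3, 3 and 4 reads in C and 1, 3 and 0 in R. The 3 adamts17 models are neighbours on chromosome 32 and may not be separate copies. The tested adamts9 and adamts20 models differed by 0.20 and 0.27. Both share a protein match described as goldfish ADAMTS20-like, so which gene the adamts9 model is remains uncertain.

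ADAMTSL proteins have no protease domain, and several bind fibrillin microfibrils. The adamtsl5 model Cau.07G0010810 (chromosome 7, 27842154 to 27853588, minus strand) had 8.59, 8.52 and 7.98 FPKM in C and 4.70, 5.02 and 6.91 in R. The groups did not overlap, and the difference of 0.53 (SE 0.16, limma adjusted p = 0.0499) was just under the threshold. It was kept in 5 of 13 alternatives and lost without C1, C2, C3, R1 or R2 (limma adjusted p = 0.129, 0.0947, 0.0673, 0.152 and 0.157), with a pseudocount of 0.1 (0.0544) and with no minimum (0.069). The adamtsl3 model Cau.32G0002800 had 4.58, 3.57 and 2.93 FPKM in C and 2.51, 3.31 and 3.21 in R, which overlapped (limma adjusted p = 0.443).

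Proteases and inhibitors were compared by their summed FPKM over the tested models, as a description without a test. The sum of mmp was 376, 560 and 305 FPKM in C and 661, 537 and 362 in R, and that of adamts was 166, 264 and 110.5 in C and 98.3, 98.4 and 113.9 in R, both with overlap. The ratio of proteases to inhibitors was 2.24, 3.25 and 1.53 in C and 3.93, 3.43 and 2.65 in R (2.34 ± 0.867 and 3.34 ± 0.646, SD, n = 3 each). C2 lay among the R values and the groups overlapped. On the log2 scale the ratio was 1.16 ± 0.54 in C and 1.72 ± 0.29 in R, a difference of -0.56.

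The difference depended on which proteases and libraries were summed. With mmp alone it was -0.79, and between -1.04 and -0.55 with 1 library left out. In C2 adamts3 made up 45.0% of the FPKM of all adamts models, tested or not. With adamts alone the difference was 0.25, but it was -0.07 without C2 and 0.60 without C3. Without mmp9 and mmp13, a choice made after the values were seen, it was -0.12, and the linear ratios were 2.02 ± 0.554 in C and 2.14 ± 0.0903 in R; that value was -0.29 without C2, 0.12 without C3 and -0.18 without C1. The difference over all proteases was -0.29 without C3. Over all mmp models, tested or not, mmp9 made up 3.48% and 5.98% of mmp FPKM in C1 and C3. Its share was 24.8% in C2 and 20.7% to 37.1% in R. The leading name was mmp2 in every C library (29.3% to 44.8%) and in R3 (32.5%), and mmp9 in R1 and R2.

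**Figure D5:**
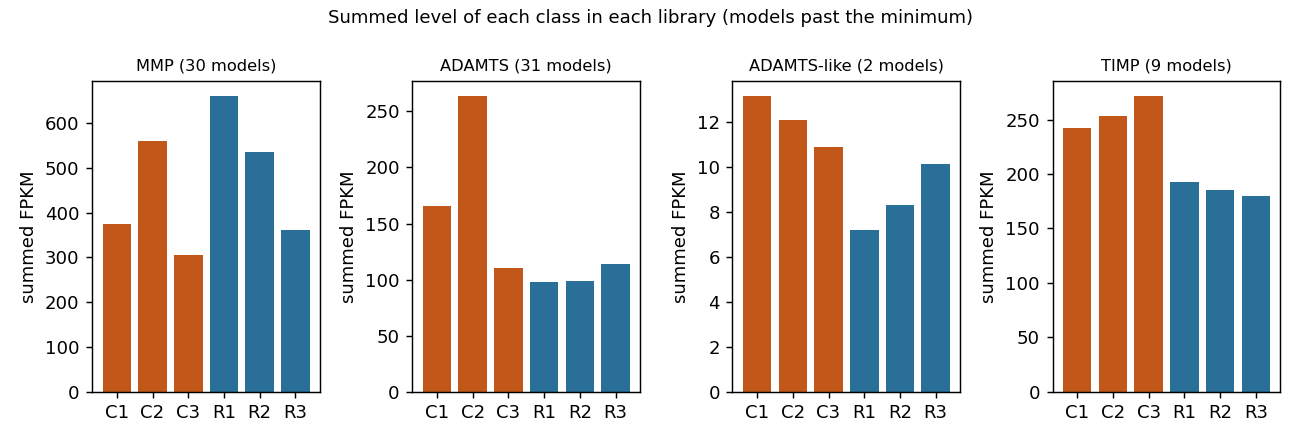
Summed FPKM of the tested models of each class in each library (bars; C orange, R blue; each panel has its own y axis starting at 0). The timp and adamtsl sums of the C libraries lie above all R libraries, while the mmp and adamts sums overlap between the letters and C2 has the highest adamts sum, 264 FPKM.

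Genes that work with these proteases were read from lists chosen with earlier results of these data known. Of the fibrillar collagens, the substrates of the propeptidases and collagenases, 5 of 29 tested models (17.2%, against 20.2% of all tested models) were higher and none lower in C, with a median difference of 0.37 against -0.09 for all tested models. The col1a1 copies Cau.28G0014390 and Cau.03G0016740 had 821 ± 92.9 against 281 ± 81.7 and 88.5 ± 41.5 against 29.0 ± 2.86 FPKM (limma adjusted p = 0.00249 and 0.01385). Of the hyalectans, which ADAMTS proteases cut, their link proteins and the hyaluronan synthase gene has2, 2 of 19 (10.5%) were higher and none lower (median 0.14). These were vcan Cau.10G0010530, the versican gene, with 8.96 ± 2.57 FPKM in C and 2.55 ± 0.177 in R, and the link protein gene hapln1 Cau.10G0010550, with 9.31 ± 1.03 and 5.24 ± 0.977 (limma adjusted p = 0.00357 and 0.0186). Of the genes of fibrillin microfibrils and the elastic fibre, lysyl oxidases included, 15 of 50 were higher and 1 lower (32% called, median 0.30), and those with the smallest p were mfap4 Cau.39G0000150 (difference 1.30) and mfap2 Cau.16G0005350 (0.92), whose limma adjusted p-values were 0.00266 and 0.00533.

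A list of other protease inhibitors also held relatives and partners that do not inhibit proteases, and 8 of its 31 tested models were higher and 4 lower in C (38.7% called, median 0.06). The higher models included reck and 5 that are not known as protease inhibitors, namely pcolce and 2 copies of pcolce2, whose products enhance procollagen C-proteinase, the collagen chaperone gene serpinh1 and serpinf1. The lower models were 3 of ppn and another copy of serpinh1. The smallest p-values belonged to 2 models of ppn, which encodes papilin, a matrix protein related to the ADAMTS family. Cau.38G0011110 had 0.361 ± 0.313 FPKM in C and 319 ± 93.4 in R, and Cau.38G0011140 had 2.12 ± 1.02 and 69.9 ± 16.6 (differences -7.87 and -4.54, limma adjusted p = 3.2e-06 and 9.225e-05). The gene reck, whose product is a membrane-anchored inhibitor of MMP2, MMP9 and MMP14 in mammals, is included here for that role and lies outside the naming rule. Its copy Cau.24G0001180 had 16.8 ± 1.63 FPKM in C and 8.49 ± 0.53 in R (difference 0.91, limma adjusted p = 0.00263), and its copy Cau.49G0001270 had 14.4 ± 1.17 and 11.8 ± 0.625 (limma adjusted p = 0.149).

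Of the proteinase activators and pericellular proteases 11 of 76 were higher and 12 lower in C (30.3% called, median -0.02). The cathepsin L gene ctsl Cau.30G0011330 had 87.5 ± 9.55 FPKM in C and 38.7 ± 0.86 in R, and the sheddase gene adam10 Cau.47G0009330 had 0.149 ± 0.258 and 4.07 ± 0.19 (limma adjusted p = 0.000939 and 0.000596). Further adam10 models did not all follow that model. Cau.07G0006740 had 8.52 ± 0.778 FPKM in C and 8.81 ± 0.731 in R (limma adjusted p = 0.835). Cau.25G0000160 had 5.59 ± 1.63 and 3.22 ± 0.224 (limma adjusted p = 0.0617), and Cau.47G0009340 had 1.84 ± 0.798 and 4.65 ± 0.396 (limma adjusted p = 0.021). In a list of receptors that clear these enzymes, with thrombospondins, integrins and cell-surface proteoglycans, 5 of 38 were higher and 1 lower (15.8% called, median 0.09). The higher models were 3 of the secreted thrombospondins thbs1 and thbs2, the integrin gene itgav and the syndecan gene sdc2, and the lower one was the megalin gene lrp2, the only low-density lipoprotein receptor relative called. The models with the smallest p were thbs2 Cau.13G0008350 (difference 1.06) and lrp2 Cau.09G0011810 (-1.03), with limma adjusted p-values of 0.00183 and 0.00937. Of the cytokines and transcription factors that regulate these genes 12 of 58 were higher and 3 lower (25.9% called, median 0.24), led by the cytokine gene il6 Cau.19G0001710, with 23.0 ± 3.16 FPKM in C and 3.52 ± 0.282 in R, and by tgfb2 Cau.27G0011380, with 0.0209 ± 0.0362 and 3.80 ± 0.458 (limma adjusted p = 5.95e-05 and 0.000236).

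Markers of the other tissues of the eyeball varied as well. Of all tested models 8.67% were called higher and 11.6% lower in C, 20.2% together. Of 31 tested fibroblast models 6 were higher and 3 lower (29.0% called), with sums of 2172 to 2707 FPKM in C and 1597 to 2264 in R. Of 13 cartilage models 4 were higher and 3 lower (53.85%), with sums of 532.6 to 753.6 in C and 391.5 to 478.3 in R. Of 44 skeletal muscle models 5 were higher and 1 lower (13.6%), and C2 had the highest sum, 4897 FPKM, against 1402 in C3. Of 42 lens models 2 were higher and 22 lower (57.1%), and of 35 endothelial and pericyte models 5 and 6 (31.4%). Of 24 photoreceptor models 7 were higher and 4 lower (45.8%). Of 32 pigment epithelium and melanophore models it was 7 and 2 (28.1%), and of 28 Mueller glia models 9 and 6 (53.6%). The eye is recognisable in both letters, since summed photoreceptor markers were 28710 to 40980 FPKM in all libraries. Models with the smallest p were postn Cau.35G0006090 and lum Cau.29G0005060 for fibroblasts (differences 2.27 and 1.04), and ucma Cau.29G0002330 and Cau.04G0002470 for cartilage (1.90 and 1.19). They were myh7 Cau.49G0009850 and tnnt3 Cau.03G0011670 for muscle (differences 2.345 and 2.09), grifin Cau.03G0007780 and bfsp1 Cau.13G0001420 for lens (-5.73 and -1.72), cldn5 Cau.37G0000420 and notch3 Cau.28G0006420 for vessels (-2.32 and -0.87), and sag Cau.27G0003820 and cngb3 Cau.24G0005380 for photoreceptors (2.17 and 2.13). For pigment epithelium they were rlbp1 Cau.25G0006720 and tyr Cau.15G0011920 (differences 3.88 and 3.20), and for Mueller glia the same rlbp1 model and glul Cau.27G0004860 (1.22). These are single models. Summed over its models, rlbp1 had 163, 241 and 324.5 FPKM in C and 279, 286.5 and 340 in R, which overlapped. The sums of postn, cldn5, myh7 and tnnt3 overlapped as well. Those of lum, ucma, grifin, bfsp1, notch3, sag, cngb3, tyr and glul did not, and lay in the direction of the named model. Some other sums of the cartilage, pigment and photoreceptor lists were lower in C without overlap. For cartilage, sox9 had 6.63 to 12.2 FPKM in C and 23.4 to 39.4 in R, and matn3 had 0.578 to 0.770 and 5.52 to 12.95. For pigment epithelium, dct had 63.3 to 121.7 FPKM in C and 152.6 to 167.1 in R, and lrat had 1.43 to 2.84 and 4.80 to 9.88. For photoreceptors, prph2 had 749 to 963 FPKM in C and 996 to 1130 in R. The part of these tissues in the differences of the members was not tested.

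Finally, 57 of the 129 members were below the minimum, among them 7 with no read in any library and 36 whose highest value was under 1 FPKM. No member reached the minimum through the libraries of 1 letter alone. Just outside the minimum were adamts7 Cau.07G0013490, adamts8 Cau.30G0007310 and adamtsl5 Cau.32G0012940, whose third-highest values were 0.998, 0.961 and 0.953 FPKM, and just inside were adamts17 Cau.32G0002480, mmp24 Cau.31G0012170 and mmp24 Cau.06G0011590, at 1.02, 1.06 and 1.11 FPKM. The only mmp28 model, Cau.40G0000840, an epithelial metalloproteinase gene that was not tested, had 0, 0.319 and 0.203 FPKM in C and 0.818, 0.983 and 0.75 in R, from 0, 7 and 5 reads in C and 18, 23 and 19 in R.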

How the data were processed

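The authors' deposited table holds FPKM for 56251 gene models with positions, lengths and best protein matches, per the file headers. The submitters' processing notes list Bowtie 0.12.5, TopHat2 2.0.9 and DESeq 1.10.1 without roles, and a pig genome build that does not match the goldfish identifiers. The goldfish assembly, the read counter and its use of strand were not given in the sources used here, so overlapping antisense genes and near-identical copies may share reads. In each library FPKM times length came out as whole multiples of 1 value (tolerance 0.01 of a read), from which reads were recovered. Models with 1 FPKM or more in 3 of 6 libraries were tested with limma 3.58.1 in R 4.3.3 (trend, robust) on log2(FPKM + 1), C against R with no other term, at a Benjamini-Hochberg adjusted p under 0.05; the script was tested on simulated data. Symbols came from Swiss-Prot matches and, for 23 members, from RefSeq (assembly ASM336829v1, names only; 106 members matched an accession). Members and lists were chosen with earlier results of these data known. Named were every called member, every adamts1 model, the 3 models of highest mean FPKM in each class, other copies of called names as a range, and in each list the 2 models with the smallest p. Models named outside this rule were chosen after their values were seen (the second copy of mmp9, the mmp14 and adamts3 models beyond the most abundant, timp4, adamts5, adamts7, adamts9, adamts10, adamts14, adamts15, adamts17, adamts20, mmp15, mmp16, mmp17, mmp23, mmp23b, mmp24, mmp28 and reck, and in the lists mpo, lyz, marco, ncf1, ncf4, krt8, krt19, epcam, cdh1, tp63, pax6, evpl, ppl, dsp, sox9, matn3, dct, lrat, prph2, the further adam10 models, itgav, sdc2, thbs1, serpinh1, serpinf1, pcolce, pcolce2 and has2).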

Additional observations from a re-analysis of the deposited data

How the results depend on the processing

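Alternatives to the tests were another pseudocount (0.1), no minimum, a minimum of 5 FPKM on average, quantile normalisation, a median log2 ratio set to 0, the replicate number as a block, limma-voom on recovered reads, and leaving out each library. Over all models the count of calls was 6864, became 3670 with the minimum of 5 FPKM, where 16850 models were tested, and ranged from 3557 to 6404 with 1 library left out. Among members it was 14, became 9 with the minimum of 5 FPKM, where 29 members were tested, and ranged from 8 to 13 with 1 library left out. Among calls over all models the share higher in C was 42.8% as deposited, 49.5% after quantile normalisation, 52.4% with the median set to 0 and 53.4% with the minimum of 5 FPKM. Named members had 280 alternative values, of which 39 lost the call, 2 gained it, and 4 changed sign, all of models not called: mmp2 Cau.07G0008170 turned from -0.02 to 0.0665 with the median set to 0 and to 0.0821 and 0.0867 without C3 and R1 (from -0.125 to 0.0867 with 1 library left out), and timp2 Cau.37G0008870 from 0.19 to -0.0035 after quantile normalisation. Whether the numbers in the titles pair the libraries could not be decided, with 3 libraries in each group. The deviations of C and R libraries with the same number correlated at -0.00523, 0.0989 and 0.0394. Those with different numbers correlated at -0.112 to 0.0673. With the replicate block 5971 models and 10 members were called. It lost the calls of timp2 Cau.03G0018300, adamtsl5, mmp11, adamts1 Cau.26G0006180 and adamts18 (limma adjusted p = 0.05085, 0.0818, 0.0508, 0.0572 and 0.0597). The call of mmp14 Cau.02G0010080 was gained (limma adjusted p = 0.0362). The protease to inhibitor difference of -0.56 turned to 0.25 with adamts alone, which was -0.0749 with C2 left out as well (chosen after seeing the data), became -0.12 without mmp9 and mmp13 (chosen after seeing the data), and ranged from -0.83 to -0.29 with 1 library left out. The adamts1 difference of 1.99 ranged from 1.63 to 2.46 with 1 library left out. The cause of these changes was not tested. Depth limits the low models, since called members had 14 to 3185 reads in a library.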

Other observations

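The models that stood furthest above all other libraries in C2, beside adamts3, included other matrix genes, chosen after their values were seen. Both col10a1 models, which encode the collagen of hypertrophic cartilage, had 208.5 and 230.9 FPKM in C2 and at most 39.2 and 52.7 in any other library (Cau.42G0003420 and Cau.17G0003590). The periostin model postn Cau.10G0006050 had 15.2 FPKM in C2 and at most 2.61 elsewhere. These values describe 1 library and were not tested.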
